A study of Mus musculus with 6 samples.

Results

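The matrix metalloproteases, the ADAM and ADAMTS proteases, the ADAMTS-like proteins and their TIMP inhibitors were followed in mouse muscle satellite cells, freshly sorted or after 5 days in culture. Members were chosen by gene symbol alone, from probe sets that the platform annotation gives to a single gene, and where a gene had several, the brightest over all 6 arrays stood for it. This gave 83 of the 19938 genes compared. There were 22 Mmp, 34 Adam, 18 Adamts, 5 Adamtsl and 4 Timp genes. Mmp15 and Adamts2 were not analysed here.

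The series holds 6 whole-transcript Affymetrix arrays. The 3 fresh arrays carry RNA of satellite cells, the stem cells of skeletal muscle, taken by cell sorting from unchallenged hind-limb, abdominal and triceps muscle of wild-type C57BL/6J mice aged 2 months. The gate kept cells positive for CXCR4 and B1-Integrin and negative for Sca1, Ter119, CD11b, CD31 and CD45. The 3 cultured arrays carry RNA of cells sorted in the same way and grown on Collagen Type 1 and Laminin in medium with 20% Donor Horse Serum and bFGF at 5 ng/ml each day. Time, coat and medium thus differ together between the groups. The labels mention 3 mice and do not tie an array to a mouse, so the spread between these samples, on which every p-value rests, may be technical.

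Matrix metalloproteases are zinc enzymes that cut collagens, gelatin, laminin and other matrix proteins, and are made as inactive precursors. ADAMs sit in the cell membrane, where they release the outer parts of receptors, adhesion molecules and growth factors, and several also take part in cell fusion or fertilisation. ADAMTS enzymes are secreted and cut proteoglycans such as versican and aggrecan, trim procollagens or process clotting factors, while ADAMTS-like proteins share their matrix-binding parts and lack the protease. TIMPs bind and block the active sites of metalloproteases. In muscle these enzymes are known for remodelling the niche around the satellite cell and for the migration of activated myoblasts.

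All levels are log2 expression values on the scale deposited by the authors, and every group mean is of 3 arrays (n = 3). A difference is cultured minus fresh. It was tested with limma, two-sided, with p-values adjusted by Benjamini-Hochberg over all 19938 genes, and a gene passed at an adjusted p below 0.05. A group mean counted as within background when it did not exceed that reached by 95% of 1178 receptor genes of the olfactory and vomeronasal families, a level of 3.16 in fresh and 3.25 in cultured cells. Of the 83 members, 44 lay within background in both groups. In fresh cells 36 were above it and in cultured cells 34, and 31 of these were above it in both. Above background in at least 1 group were 39 members, 47.0%, against 57.2% of all genes. An array tells little about change in a gene within background, and a level of one probe set cannot be set against that of another.

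Of the 83 members, 2 passed the test. Mmp2 and Adamts1 fell, and none of the 83 rose. These 2 are 2.41% of the members, against 4.32% of all genes tested, and for falls alone 3.37% of all genes passed. For rises the share over all genes was 0.953%. Among genes above background in at least 1 group, 5.13% of members passed, against 7.42% of all genes. A count of 2 is too small to set the family apart from all genes. The median difference was 0.05 over the members and 0.04 over all genes. The largest differences that missed the threshold were in Timp1 upward and in Adamts5 and Timp3 downward. A difference of at least 2-fold was seen for 5 of the 83 members, against 1105 of all 19938 genes (5.54%). These 5 were Mmp2, Adamts1, Adamts5, Timp1 and Timp3. The groups did not overlap in 23 members, 27.7%, against 23.2% of all genes. In 15 of them the cultured values were above the fresh values (12.9% of all genes) and in 8 they were below (10.3% of all genes).

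Over all genes 861 passed, 22.1% of them higher in culture. That share was 38.8% after a further quantile normalization, where 4 of the 83 members fell and 2 rose. Over all 19938 genes, 925 fell and 586 rose in that setting. Leaving out a single array took the count of 861 to 478 (fresh replicate 2), to 471 (fresh replicate 3), to 448 (cultured replicate 3) or to 1517 (cultured replicate 1). The array medians lay between 3.10 and 3.15, but genes of the same brightness did not sit alike on the cultured arrays. Among the 1784 genes with a mean from 5 to 7, which hold 6 members, the median distance from the fresh mean was 0.13 on cultured replicate 1, -0.53 on replicate 2 and -0.26 on replicate 3. Among the 9889 genes with a mean from 3 to 5, which hold 38 members, these distances were 0.12, -0.02 and 0.09. Among the 349 genes with a mean from 7 to 9, which hold no member, they were 0.04, -1.30 and -0.91. All 10 satellite cell markers were above background in fresh cells, and 7 of the 10, among them Pax7 and Vcam1, fell in culture. That is 70% of the list, against 3.37% of all genes. Myod1, at -0.41, Cdh15, at -0.40, and Itga7, at 0.22, did not pass. The part of the shift with brightness in the 7 falls was not tested.

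**Figure D1:**
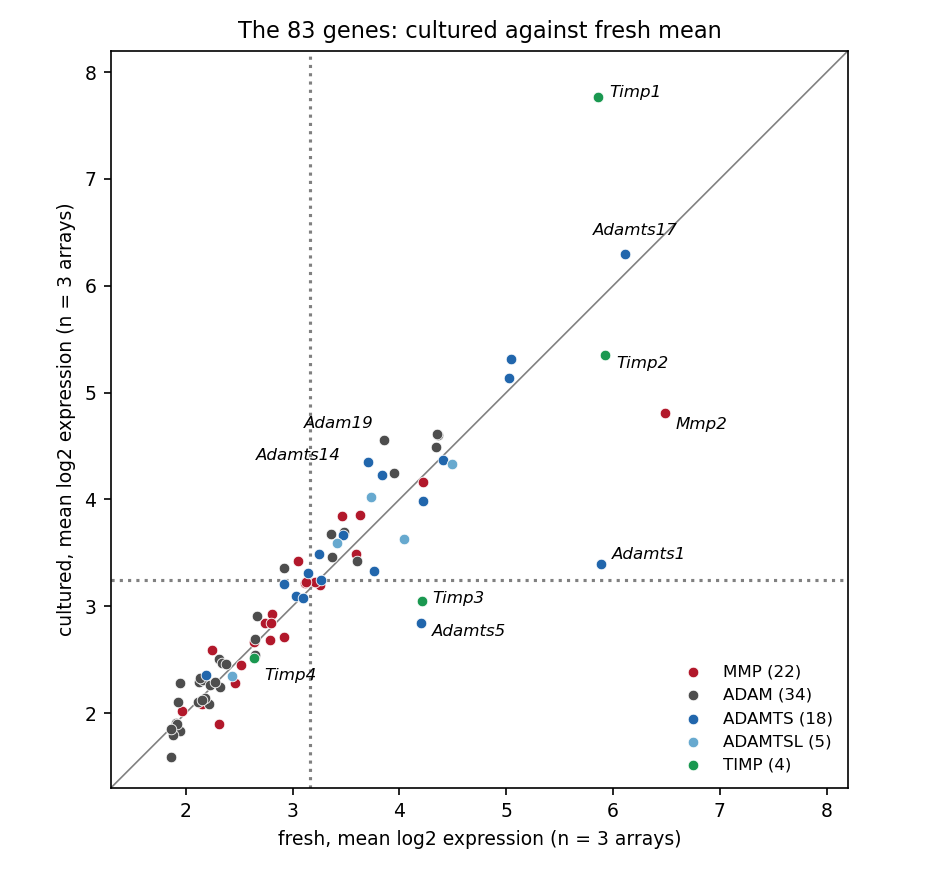
Each point is 1 of the 83 genes, with its mean log2 expression on the 3 fresh arrays along the horizontal axis and on the 3 cultured arrays along the vertical axis. Colours give the family, dotted lines the background level of each group and the solid line equal levels. Most genes lie on or near the line, many of them within background on both axes, while Timp1 stands above the line and Mmp2, Adamts1, Adamts5 and Timp3 below it.

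Mmp2 encodes gelatinase A, which cuts gelatin and the collagen of basement membranes. Fresh replicates 1, 2 and 3, in that order here and below, gave 6.63, 6.43 and 6.40, and the cultured replicates gave 5.05, 4.45 and 4.92. Every cultured value lay below every fresh value, and all 6 were above background. The fresh mean was 6.49 ± 0.12 (SD) and the cultured mean 4.81 ± 0.31. Mmp2 thus fell by 1.68 ± 0.18 (SE) on the log2 scale, a 3.20-fold difference (limma adjusted p = 0.0022). It passed under each of the 14 other settings tried, with a difference between -1.80 and -1.43, the latter after quantile normalization. The mean of Mmp2 over the 6 arrays lay from 5 to 7. Genes of that brightness lay at median distances of -0.53 and -0.26 from the fresh mean on cultured replicates 2 and 3. The part of that shift in the fall of Mmp2 was not tested. In RNA of sorted cells as a whole, fewer cells of a type and less RNA per cell cannot be told apart. Mmp9, the other gelatinase, known from neutrophils and macrophages, lay within background in both groups at 3.13 and 3.23.

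Mmp2 is also made by the fibroblasts and fibro-adipogenic cells of muscle. Of 8 measured fibro-adipogenic markers of 9 listed, 3 fell in culture, 37.5%. Over all genes tested 3.37% fell, the share to set beside this list and the other marker lists. These were the proteoglycan Dcn, at -4.52, Dpt, at -5.02, and the collagen Col3a1, at -1.08. The cultured means of Dcn and Dpt were within background, and against that level their differences are -4.14 and -4.19. Col3a1 lost its call in 5 of the 14 other settings, among them quantile normalization (adjusted p = 0.112) and leaving out fresh replicate 1, fresh replicate 2 or cultured replicate 3. The mean over the list was 4.92, 4.66 and 4.47 in fresh and 3.34, 3.33 and 3.28 in cultured cells. Dcn and Dpt, with the largest differences of the list, weigh most in the change of this mean. Dcn itself was at 8.53, 7.78 and 5.86 on the fresh arrays and within background on all cultured arrays. The collagen Col1a1, bright in both groups, was at 5.25 in fresh and 5.12 in cultured cells and did not pass (adjusted p = 0.744). The defining marker Pdgfra was at 3.35 in fresh and 3.62 in cultured cells, and Lum, Pi16 and Mfap5 were within background in both groups. Ly6a, which encodes the Sca1 excluded by the gate, was not analysed here. The part of these markers in the difference of Mmp2, and in those of Adamts1, Adamts5 and the Timp genes below, was not tested. Of 6 endothelial markers 4 were within background in both groups, Tie1 was at 3.42 in fresh and 3.43 in cultured cells, and 1 fell. It was the receptor Tek, at 3.08, 3.54 and 3.40 in fresh and 2.67, 2.59 and 2.50 in cultured cells (adjusted p = 0.0413), and leaving out fresh replicate 2 or 3 or cultured replicate 2 or 3 ended that call (highest adjusted p = 0.168). Of 6 macrophage markers 5 were within background in both groups. The other, Cd68, was at 3.97, 3.50 and 3.75 in fresh and 3.30, 3.06 and 3.05 in cultured cells, which did not overlap (adjusted p = 0.0995). The part of these markers was not tested either.

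**Figure D2:**
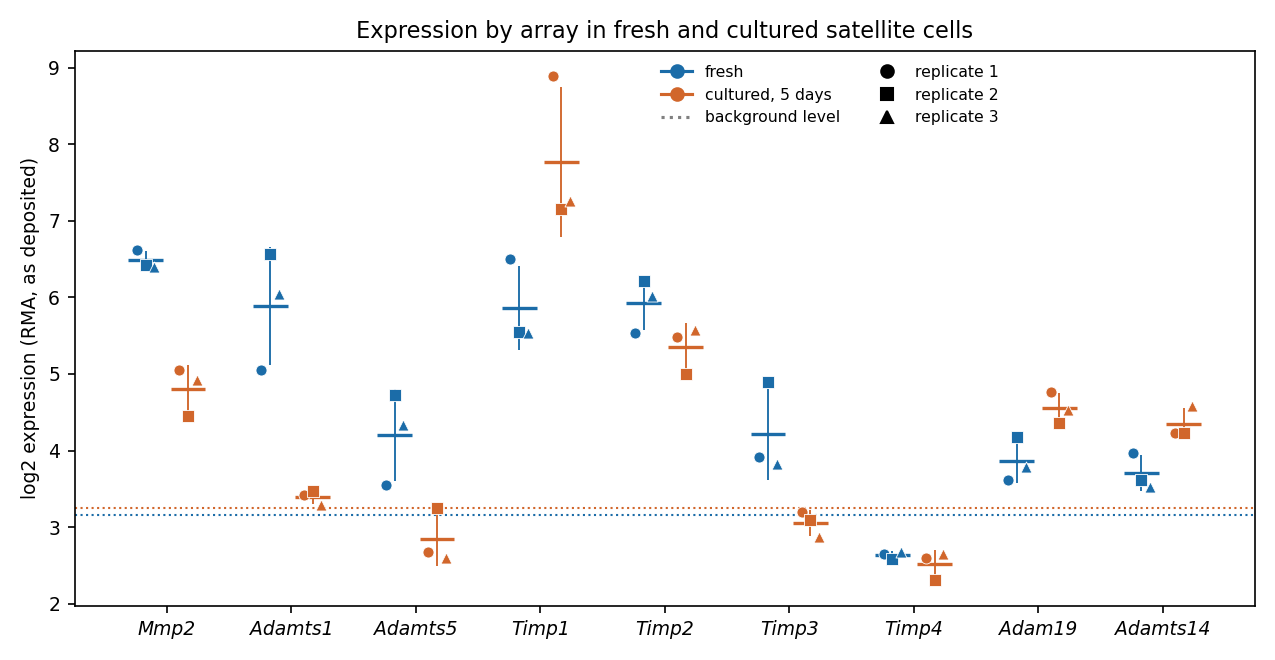
Points are the log2 expression of 9 genes on each of the 6 arrays, with the marker shape giving the replicate number, the horizontal bar the group mean and the vertical line its SD (n = 3). Dotted lines mark the background level of each group. Fresh and cultured values overlap in Timp2 and Timp4 and in none of the other genes shown. Over all genes tested, the groups did not overlap in 23.2%. Timp1 is highest on cultured replicate 1 at 8.89, and Timp4 stays below both dotted lines.

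The collagenases and stromelysins, the secreted enzymes that cut fibrillar collagen and a wide range of matrix proteins, lay within background apart from Mmp11. All 4 collagenase genes, Mmp1a, Mmp1b, Mmp8 and Mmp13, lay within background in fresh and in cultured cells, with group means from 1.90 to 2.84. Mmp1a had values of 2.28, 2.26 and 2.39 in fresh and 1.89, 1.97 and 1.84 in cultured cells, which did not overlap (adjusted p = 0.138), but both group means are within background. Mmp3 and Mmp10, the stromelysins, were within background as well. Mmp11, stromelysin 3, which is not secreted as a latent enzyme, was at 3.64 in fresh and 3.85 in cultured cells, a difference of 0.22 ± 0.14 (adjusted p = 0.474). Mouse Mmp1a and Mmp1b are similar copies, so probes may not tell their RNA apart.

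Promoters of Mmp genes within background are shown because 8 of them carry a match to the AP-1 motif close to the gene start. The series is titled after Fos, a subunit of the AP-1 factor. In the RefSeq annotation of GRCm38.p6, 10 Mmp genes follow each other on chromosome 9 with no other protein-coding gene between them. They are Mmp13, Mmp12, Mmp1b, Mmp3, Mmp1a, Mmp10, Mmp8, Mmp27, Mmp20 and Mmp7. All 10 were within background in both groups, with group means from 1.90 to 2.93 and differences from -0.41 to 0.34, none of which passed. Fos fell in culture from 10.23 ± 0.19 to 4.20 ± 0.26 (SD), a difference of -6.03 (adjusted p = 1.01e-05). The motif searched was TGANTCA, which reads the same on both strands apart from its middle base, and TGACGTCA, the CRE, was searched beside it. Within 100 bases before the start, TGANTCA was found in 8 of the 12 promoters of the run, 1 for each of its 10 genes but Mmp8 and Mmp27. Over all 32851 promoters the share was 2.73%. The run is shown for these matches, so the count is a description. The windows are the 100 bases before the annotated start, 5′ to 3′ along the gene, with the motif in capitals:
Mmp13: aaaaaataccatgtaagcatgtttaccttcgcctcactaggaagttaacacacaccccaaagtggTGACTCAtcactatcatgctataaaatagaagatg
Mmp12: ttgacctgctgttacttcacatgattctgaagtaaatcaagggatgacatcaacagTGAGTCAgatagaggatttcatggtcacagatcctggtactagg
Mmp1b: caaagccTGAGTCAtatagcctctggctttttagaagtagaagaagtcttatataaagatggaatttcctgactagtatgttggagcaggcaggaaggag
Mmp3: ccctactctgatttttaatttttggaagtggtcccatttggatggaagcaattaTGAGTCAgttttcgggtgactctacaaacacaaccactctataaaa
Mmp1a: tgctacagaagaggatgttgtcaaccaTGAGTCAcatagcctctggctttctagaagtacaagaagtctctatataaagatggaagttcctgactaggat
Mmp10: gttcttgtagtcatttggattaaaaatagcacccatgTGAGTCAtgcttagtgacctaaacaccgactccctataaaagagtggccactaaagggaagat
Mmp20: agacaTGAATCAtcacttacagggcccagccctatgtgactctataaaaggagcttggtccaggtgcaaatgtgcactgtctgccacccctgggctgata
Mmp7: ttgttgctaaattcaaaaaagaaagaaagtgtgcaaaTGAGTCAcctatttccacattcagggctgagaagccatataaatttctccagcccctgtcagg

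On GRCm38.p6 these windows are chr9:7272414-7272513 for Mmp13, chr9:7347274-7347373 for Mmp12, chr9:7388027-7388126 for Mmp1b, chr9:7445722-7445821 for Mmp3, chr9:7464041-7464140 for Mmp1a, chr9:7502242-7502341 for Mmp10, chr9:7628131-7628230 for Mmp20 and chr9:7691990-7692089 for Mmp7. All are on the plus strand except that of Mmp1b, on the minus strand. The motif begins 35 bases before the start in Mmp13, 44 in Mmp12, 46 in Mmp3, 63 in Mmp10 and in Mmp7, 73 in Mmp1a, 93 in Mmp1b and 95 in Mmp20. The letters TGAGTCA occur in 6 of the 8, TGACTCA in Mmp13 and TGAATCA in Mmp20. The windows of Mmp1a and Mmp1b are near copies of each other around the motif. These matches describe the sequence and say nothing of binding.

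Over the whole family, promoters were on hand for 52 of the 83 members, 57 in all, and 31 members, among them Mmp2 and Adamts5, had none. TGANTCA was found within 250 bases before the start in 12 of the 57 promoters, 21.1%, against 6.75% of all promoters. Of the 45 member promoters outside the run on chromosome 9, 4 had it, 8.89%, and these were promoters of Adam19, Adam20, Adam25 and Adam29. TGACGTCA was in 0 of the 57, against 1.55% of all promoters. The run is one set of duplicated genes, so its 8 matches are not independent of each other.

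The membrane-bound MMPs work at the cell surface, where Mmp14 is known as the activator of pro-Mmp2. Of 6 measured, 5 were above background in at least 1 group and none passed. Mmp14 was at 3.45, 3.42 and 3.90 in fresh and 3.78, 2.99 and 3.69 in cultured cells, with overlapping groups and a difference of -0.11 ± 0.24 (adjusted p = 0.870). Mmp24 was the nearest to no change of those above background in both groups, at 4.22 and 4.16, and Mmp16 was at 3.26 and 3.20, the latter within background. The signs of these 3 small differences turned in 2 of 14 other settings each. Mmp23 had the largest difference of the group. Its values were 3.43, 3.64 and 3.34 in fresh and 3.92, 3.88 and 3.73 in cultured cells, which did not overlap, with a difference of 0.38 ± 0.14 (adjusted p = 0.219). Among the 7 remaining secreted MMPs, including the macrophage elastase Mmp12, matrilysin Mmp7 and the enamel protease Mmp20, only Mmp21 was above background in any group, at 3.05 in fresh and 3.43 in cultured cells (adjusted p = 0.416).

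Adamts1, a secreted protease that cuts versican and aggrecan, had the largest difference of the 83 genes. The fresh arrays gave 5.05, 6.57 and 6.05 and the cultured arrays 3.42, 3.47 and 3.29. All cultured values lay below all fresh values, and fresh replicate 1 was the lowest of the fresh arrays. The means were 5.89 ± 0.77 and 3.39 ± 0.10 (SD), the latter a little above the background of 3.25. Adamts1 fell by 2.50 ± 0.34 (SE) on the log2 scale, a 5.64-fold difference (limma adjusted p = 0.0066). The difference lay between -2.92, without fresh replicate 1, and -2.15, without fresh replicate 2, and the gene passed in all 14 other settings.

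Adamts5 is the neighbour of Adamts1 among protein-coding genes on chromosome 16 and encodes a second protease of versican and aggrecan. It was at 3.55, 4.72 and 4.33 on the fresh arrays and at 2.67, 3.25 and 2.60 on the cultured arrays. The groups did not overlap, and fresh replicate 1 was again the lowest fresh array. The difference was -1.36 ± 0.31 (SE) with an adjusted p of 0.0556. The cultured mean of 2.84 was within background, so against that level the difference is better given as -0.95. Adamts5 passed in 8 of the 14 other settings, among them without fresh replicate 1, at -1.69 (adjusted p = 0.0187), and without cultured replicate 2, at -1.56 (adjusted p = 0.0482). The mean over 5 tendon markers was 5.05 on fresh replicate 1, 3.59 and 3.21 on the other fresh arrays and 3.69 to 3.81 on the cultured arrays. Tnmd, Fmod and Thbs4 were highest on fresh replicate 1, at 4.86, 6.08 and 6.11. Scx was at 5.26, 5.23 and 4.69 in fresh cells and higher on each cultured array, and the fresh mean of Mkx was within background. The part of these markers in the values of Adamts1 and Adamts5 was not tested.

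The other proteoglycan-cutting members had small differences. Adamts4, an aggrecan-cutting enzyme, was at 4.41 in fresh and 4.37 in cultured cells, a difference of -0.04 ± 0.17 (adjusted p = 0.926). Adamts9 differed by 0.12, Adamts8 by 0.19 and Adamts15 by 0.24, none past the test. The 6 probe sets of Adamts9 ran from -0.22 to 0.25, 2 of them above 0 and 4 below, so its sign depends on the one kept. Adamts15 was at 3.34, 3.27 and 3.15 in fresh and 3.43, 3.59 and 3.45 in cultured cells, so that its groups did not overlap although both lay close to background. Adamts20 was within background. Of these 7 proteoglycanase genes 1 fell and none rose, with a median difference of -0.02.

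The procollagen proteases Adamts3 and Adamts14, which remove the amino-terminal propeptide from fibrillar collagens, had higher cultured values without passing the test. Adamts14 was at 3.97, 3.62 and 3.53 in fresh and 4.23, 4.23 and 4.59 in cultured cells, a difference of 0.64 ± 0.18 (adjusted p = 0.0958), and it passed in 1 of the 14 other settings, with array weights. Adamts3 was at 3.68, 3.88 and 3.96 in fresh and 4.22, 3.98 and 4.48 in cultured cells, a difference of 0.39 ± 0.17 (adjusted p = 0.290). In neither gene did the groups overlap. Adamts3 has 16 probe sets, whose differences ran from -0.54 to 0.43, with 3 above background and none past the test, so its value depends on the one kept.

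Of the 9 remaining ADAMTS genes none passed. Adamts13, the protease of von Willebrand factor, was at 3.96, 3.58 and 3.76 in fresh and 3.53, 3.26 and 3.21 in cultured cells, with groups that did not overlap and a difference of -0.43 ± 0.16 (adjusted p = 0.210). Adamts7, a protease of cartilage oligomeric matrix protein, had a difference of 0.27, Adamts10, a microfibril-associated member, one of -0.24, and Adamts17 one of 0.18. The 5 probe sets of Adamts17 ran from -0.13 to 0.58, none past the test. Of the 5 ADAMTS-like genes, Adamtsl1 differed by -0.41 ± 0.17 (adjusted p = 0.280) and Adamtsl5 by 0.28 ± 0.16 (adjusted p = 0.408). The groups did not overlap in either. The other probe set of Adamtsl1, within background, gave 0.08. Adamtsl2 and Adamtsl4, both linked to fibrillin microfibrils, differed by 0.17 and -0.16.

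The ADAMs with an intact protease that are used in somatic tissues showed small differences of one sign. All 9 had a cultured mean above the fresh mean, by 0.09 to 0.69 with a median of 0.22, and none passed. Without cultured replicate 1 the count was 8 of 9, and under every other setting all of them that were tested kept this sign. The 9 values come from the same 6 arrays, and over all 19938 genes 11284 differences were above 0. Adam12 and Adam28 were within background in both groups, and the other 7 were above it in both, with means from 3 to 5. All genes of that brightness lay at median distances of 0.12, -0.02 and 0.09 from the fresh mean on cultured replicates 1, 2 and 3. The part of that shift in the common sign was not tested.

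Adam19, or meltrin beta, a protease of neuregulin, had the largest difference among the ADAMs. It was at 3.62, 4.18 and 3.78 on the fresh arrays and at 4.76, 4.36 and 4.53 on the cultured arrays, without overlap. The difference was 0.69 ± 0.19 (SE) with an adjusted p of 0.0954, and it passed in 3 of the 14 other settings. These were quantile normalization, cyclic loess and array weights. Adam10, the protease that opens Notch receptors to signalling, was at 3.04, 3.56 and 3.48 in fresh and 3.80, 3.70 and 3.55 in cultured cells. The groups of Adam10 overlapped, and the difference was 0.32 ± 0.17 (adjusted p = 0.404). Adam17, which releases tumour necrosis factor and ligands of the epidermal growth factor receptor, differed by 0.09 ± 0.18 (adjusted p = 0.853). Adam33 and Adam15 differed by 0.26 and 0.24, and only in Adam15 of these 2 were the groups apart. Adam12, or meltrin alpha, named for its part in myoblast fusion, was at 2.31 and 2.50, too dim for a statement on change.

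Among the 3 somatic ADAMs without protease activity, Adam11 was above background, at 3.95 and 4.24, with a difference of 0.29 ± 0.20 (adjusted p = 0.501). Germ-line ADAMs, which act on sperm surfaces, are a check on the floor of the measurement. Of 22 measured, 20 were within background in both groups, and none passed. The exceptions were Adam34l, at 3.61 and 3.42, and Adam1b, at 2.92 in fresh and 3.36 in cultured cells. Several lie in runs of similar copies on chromosome 8, where probes can be shared between genes.

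**Figure D3:**
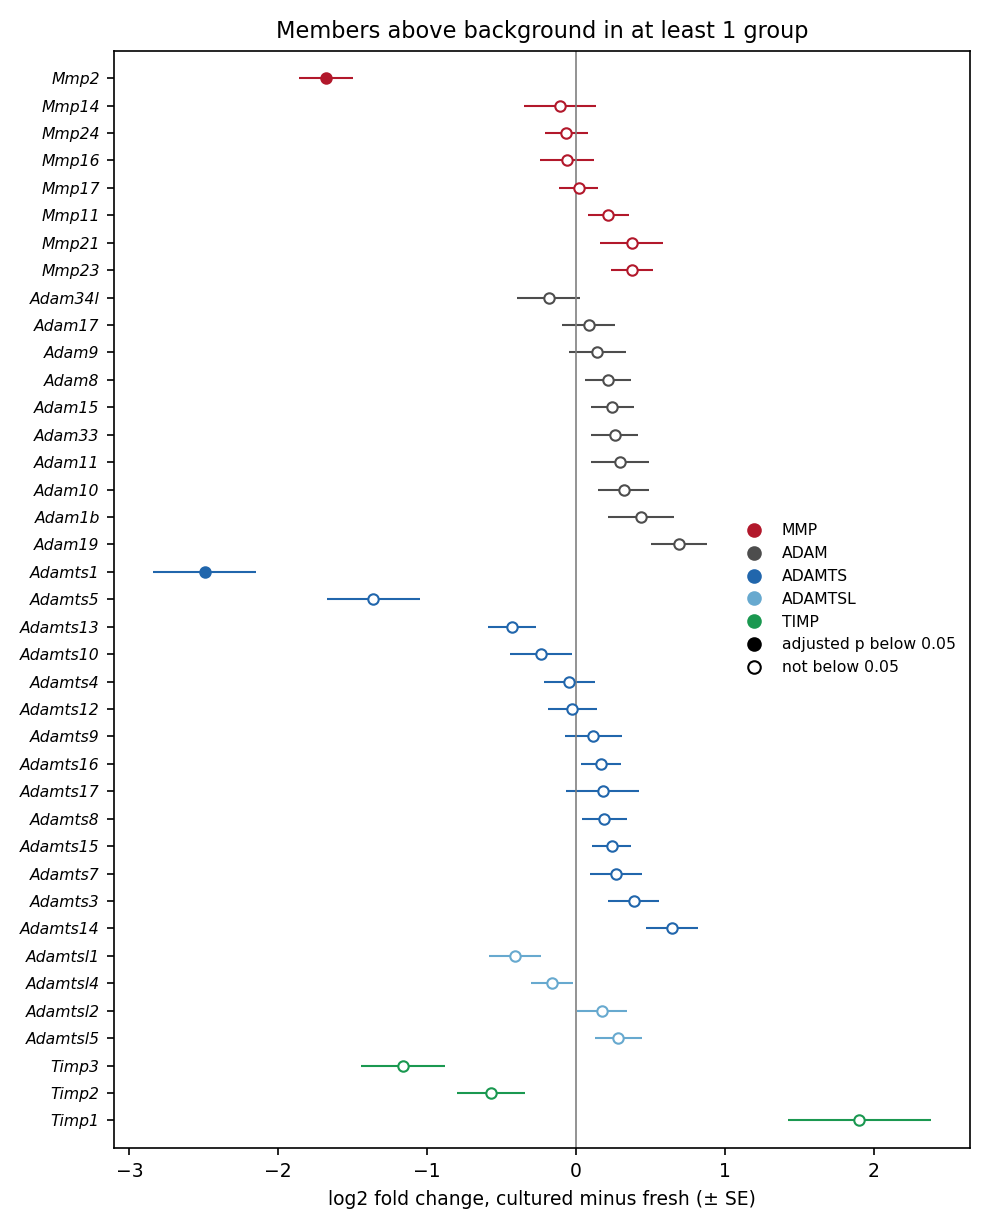
Points are the log2 difference, cultured minus fresh, of the 39 genes above background in at least 1 group, ordered within each family, and lines are the standard error of the fit (n = 3 per group). Filled points passed an adjusted p of 0.05. Only Mmp2 and Adamts1 are filled, and Timp1 stands apart on the right at 1.90.

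The 4 TIMP genes, the inhibitors of the enzymes above, differed in sign, and none passed. Timp1 had the largest upward difference of the 83 genes. It was at 6.50, 5.55 and 5.54 on the fresh arrays and at 8.89, 7.16 and 7.25 on the cultured arrays. Every cultured value lay above every fresh value, and cultured replicate 1 stood well above the other cultured arrays. The means were 5.86 ± 0.55 and 7.77 ± 0.98 (SD), a difference of 1.90 ± 0.48 (SE), 3.74-fold, which did not pass (limma adjusted p = 0.0767). Timp1 passed in 5 of the 14 other settings. Without cultured replicate 1 the difference was smaller, at 1.34, and passed with an adjusted p of 0.0248. It also passed after quantile normalization, at 2.35 (adjusted p = 0.0011), and cyclic loess, at 2.22 (adjusted p = 0.0029). With array weights it was 1.72 (adjusted p = 0.0359). Without fresh replicate 1, where Timp1 was highest of the fresh arrays and the tendon marker mean was highest as well, it was 2.22 (adjusted p = 0.0902).

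Timp3, the inhibitor that binds to the matrix and blocks several ADAMs and ADAMTS enzymes as well as MMPs, was at 3.91, 4.89 and 3.83 on the fresh arrays. On the cultured arrays it was at 3.19, 3.10 and 2.86, below every fresh value and within background on average. The difference was -1.16 ± 0.28 (SE) with an adjusted p of 0.0679, and -0.96 against the background level. It passed in 5 of the 14 other settings, and was -0.82 without fresh replicate 2 (adjusted p = 0.0717). Timp2, which also takes part in the activation of pro-Mmp2 by Mmp14, was at 5.53, 6.22 and 6.02 in fresh and 5.49, 5.00 and 5.58 in cultured cells. The highest cultured value exceeded the lowest fresh value, and the difference of -0.57 ± 0.23 had an adjusted p of 0.246. Timp4 was within background in both groups, at 2.64 and 2.51. Timp1, Timp3 and Timp4 lie inside the synapsin genes Syn1, Syn3 and Syn2. The differences of these hosts were -0.04, -0.15 and 0.09, none past the test.

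The promoters of Adamts1 and Timp1, the members with the largest downward and upward differences, were searched for the same motifs, and neither TGANTCA nor TGACGTCA is written in them. They are shown as the 250 bases before the start, 5′ to 3′ along the gene, at chr16:85803114-85803363 on the minus strand for Adamts1 and chrX:20869916-20870165 on the plus strand for Timp1 (GRCm38.p6), in lower case throughout since no motif was found:
Adamts1: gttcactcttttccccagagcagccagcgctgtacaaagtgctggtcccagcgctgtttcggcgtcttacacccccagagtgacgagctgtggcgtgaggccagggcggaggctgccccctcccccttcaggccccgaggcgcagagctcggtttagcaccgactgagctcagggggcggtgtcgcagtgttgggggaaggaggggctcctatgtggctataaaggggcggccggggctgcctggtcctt
Timp1: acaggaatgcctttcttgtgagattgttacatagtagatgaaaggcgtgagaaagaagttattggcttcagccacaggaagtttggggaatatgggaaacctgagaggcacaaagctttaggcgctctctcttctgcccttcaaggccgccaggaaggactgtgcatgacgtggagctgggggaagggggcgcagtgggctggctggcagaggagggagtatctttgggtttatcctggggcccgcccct

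**Figure D4:**
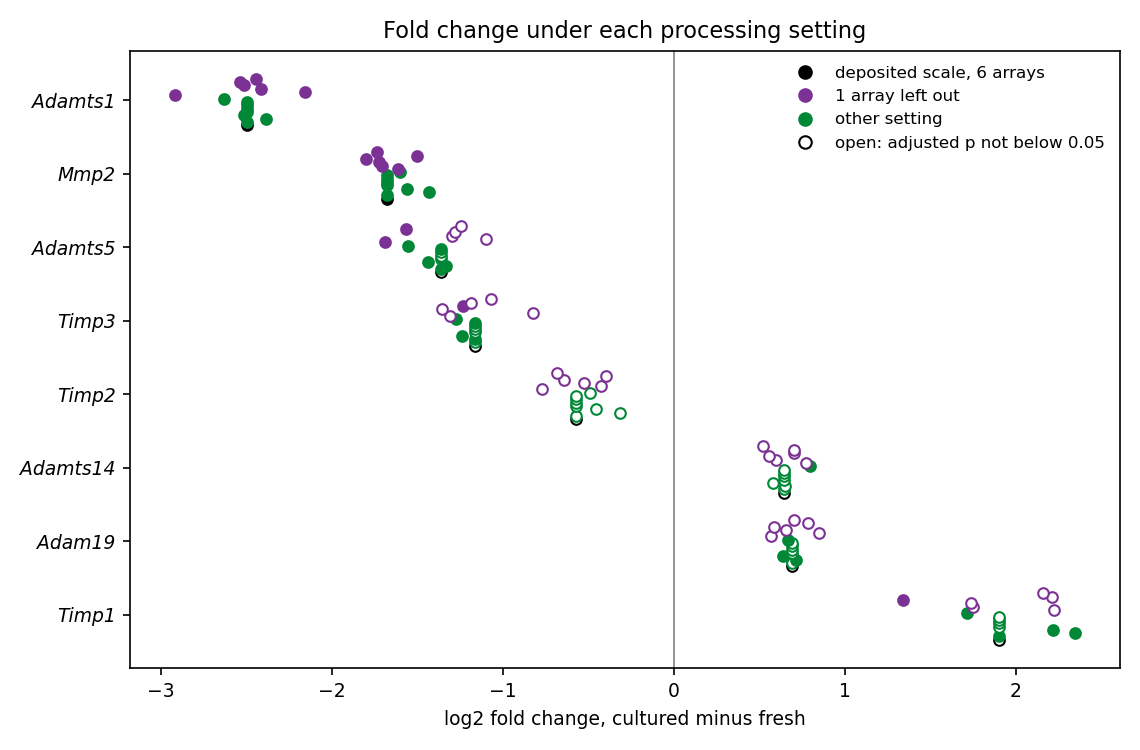
Each point is the log2 difference, cultured minus fresh, of 1 gene under 1 setting, in black for the deposited scale with all 6 arrays, in purple with 1 array left out and in green for the other settings. Filled points passed an adjusted p of 0.05. Mmp2 and Adamts1 are filled throughout, whereas Adamts5, Timp3, Timp1, Adam19 and Adamts14 hold both filled and open points, and no gene crosses 0.

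Partners of these proteases were read from lists chosen for their roles. In the plasminogen system, whose protease plasmin activates several pro-MMPs, 1 of 7 measured genes of 9 listed fell and none rose. Here and in the lists below, the share of all genes past the test was 4.32%, with 3.37% lower and 0.953% higher. It was the urokinase gene Plau, at 4.88, 5.27 and 5.14 in fresh and 4.33, 4.28 and 4.37 in cultured cells, a difference of -0.77 ± 0.15 (adjusted p = 0.0264). Among other settings, the call of Plau was lost with the trended prior and when replicate 2 or 3 of either group was left out (highest adjusted p = 0.109). Plat, the tissue-type activator, differed by -0.85 (adjusted p = 0.0655). Of 19 activators, partners and other inhibitors of the family 1 fell and none rose, 5.26%, a share near that of all genes. Sh3pxd2b, or Tks4, a scaffold of podosomes to which membrane proteases are brought, fell by 0.90 on the log2 scale (adjusted p = 0.0186), a call that did not hold when any single fresh array was removed (highest adjusted p = 0.0729). The tetraspanins Tspan14 and Tspan33, which carry Adam10 to the cell surface, differed by 0.74 (adjusted p = 0.0807) and 0.66 (adjusted p = 0.0869) from fresh means within background. Against that level the differences are 0.31 and 0.10.

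Cathepsins are proteases of the lysosome, and cystatins block the cysteine proteases among them. Of 15 genes of both kinds, 3 fell and 1 rose, 26.7% against 4.32% of all genes. Cst3, the secreted inhibitor cystatin C, averaged 8.98 ± 0.03 (SD) in fresh cells, gave 6.85, 6.23 and 6.41 on the cultured arrays, and fell by 2.48 on the log2 scale. Cst6, or cystatin E/M, was within background at 2.71, 2.46 and 2.24 in fresh and at 5.57, 4.82 and 4.50 in cultured cells. Cst6 rose by 2.49, or 1.80 against the background level (adjusted p = 0.00231). Both passed in all 14 other settings. The cathepsins Ctsb and Ctsl fell by 1.26 and 2.16. Leaving out fresh replicate 2, fresh replicate 3 or cultured replicate 3 ended the call of Ctsb (highest adjusted p = 0.0612). Leaving out any array but cultured replicate 1, or using the trended prior, ended that of Ctsl (highest adjusted p = 0.169). Cst3 and Ctsl had means over the 6 arrays from 7 to 9. Genes of that brightness lay at median distances of -1.30 and -0.91 from the fresh mean on cultured replicates 2 and 3. Ctsb had a mean from 5 to 7, where these distances were -0.53 and -0.26. The part of these shifts in the falls of Cst3, Ctsl and Ctsb was not tested. None of 11 astacins and other metalloproteases passed, with the procollagen C-proteinase Bmp1 at -0.83 (adjusted p = 0.317).

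Of 20 measured surface proteins, of 21 listed, that ADAMs or MMPs are known to release from cells, 3 fell and 1 rose, 20% against 4.32% of all genes. Syndecan 4, Sdc4, fell by 2.91 on the log2 scale, the adhesion molecule Vcam1 by 2.69 and the tumour necrosis factor receptor Tnfrsf1a by 1.31. Sdc4 and Vcam1 are also satellite cell markers. The mean of Sdc4 over the 6 arrays lay from 7 to 9 as well, and those of Vcam1 and Tnfrsf1a lay from 5 to 7. The part of the brightness shift in these 3 falls was not tested. Cdh2, N-cadherin, a substrate of Adam10, was at 3.36, 3.26 and 3.38 in fresh and 5.73, 4.31 and 5.24 in cultured cells and rose by 1.76 (adjusted p = 0.0231). The call of Cdh2 ended when cultured replicate 3 or any fresh array was left out (highest adjusted p = 0.114). That of Vcam1 ended when fresh replicate 2, fresh replicate 3 or cultured replicate 3 was (highest adjusted p = 0.0600). Notch3 differed by -0.77 (adjusted p = 0.104) and Cd44, the hyaluronan receptor, by 0.57 (adjusted p = 0.270). Of 9 hyalectans and other matrix substrates none passed. Fibronectin, Fn1, was at 3.23, 3.56 and 3.25 in fresh and 4.67, 3.61 and 3.95 in cultured cells, apart by a small margin, with a difference of 0.73 ± 0.27 (adjusted p = 0.201).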

How the data were processed

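RNA was labelled and hybridised to whole-transcript Affymetrix arrays, per the labels' protocols. The authors' deposited table gives log2 values for 35556 probe sets on 6 arrays. The package oligo and RMA were used, per the submitters' processing notes, without versions. RMA compresses differences near background. The sources used here do not give the build.

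The platform annotation of 2016 gives 1 gene to 21789 probe sets, several to 1621 and none to 12146. Two-sided tests used lmFit and eBayes in limma 3.58.1 and R 4.3.3, with the group as the only term. Named were all Timp genes, members past the test, up to 4 members a role above background with the largest absolute difference, and, per partner list, genes past the test and up to 2 others. Mmp9, Adam12 and other members named with values for their role, and members of runs or probe set groups, were added after their values were seen. The members and lists were chosen with earlier results of these data known. On simulated data over 19938 genes for cultured against fresh, 24 of 50 genes changed by 1 were recovered, 45 of 50 changed by 2, 50 of 50 changed by 3 and 49 of 50 changed by 4, with 11 false calls. The simulated noise was independent between genes and arrays, without the shift with brightness seen on the cultured arrays. These counts therefore need not hold for the deposited values. Promoters came from RefSeq (GRCm38.p6), 32851 in all. Other settings were a replicate block, quantile and cyclic loess normalization, a filter on dim genes, other probe set rules, a trended and robust prior, array weights and leaving out each array. The number of arrays limits the precision.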

Additional observations from a re-analysis of the deposited data

How the results depend on the processing

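Under the 14 other settings no difference of a named gene that had passed turned sign. The count of genes past the test was 1511 after quantile normalization, 1492 after cyclic loess and 1742 with array weights, and 448 to 1517 with 1 array left out. The count of members that rose was 1 with the replicate block, 2 after quantile normalization, 2 after cyclic loess, 3 with array weights and 0 to 1 with 1 array left out. The count of members that fell was 4 after quantile normalization, after cyclic loess, with the trended and robust prior and with array weights, and 2 to 3 with 1 array left out. Over all 19938 genes, 586 rose and 925 fell after quantile normalization, and 457 rose and 1035 fell after cyclic loess. With array weights 585 rose and 1157 fell, and with the trended and robust prior 234 rose and 667 fell. The causes of these shifts were not tested. With the replicate number as a block, 662 genes passed, 101 of them higher, and the members past the test were Adamts1, Adamts5, Mmp2 and Timp1, with Timp1 at an adjusted p of 0.0089 and Adamts5 at 0.0285, while Plau and Sh3pxd2b lost their calls at 0.0783 and 0.0675. The labels do not say that a number marks a shared mouse, the deviations of same-numbered arrays from their group means correlated at -0.09, -0.14 and 0.03, and not every array correlated best with its own number. With 3 arrays a group, and 44 members within background in both groups, small differences could not be detected.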
